A study of Mus musculus and Homo sapiens with 24 samples.

Results

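The proteasome subunit genes are the 48 genes of each line whose symbol begins with PSM, goes on with a letter from A to G and ends in a number. They were found by symbol among 56748 genes in the mouse table and 58735 genes in the human table, and the same 48 symbols were present in both. Symbols are written in capitals for both species. By role they are 7 constitutive alpha and 7 constitutive beta subunits of the 20S core, 3 immunoproteasome beta subunits (PSMB8, PSMB9 and PSMB10), 2 tissue-restricted core subunits (PSMA8 and PSMB11), and 17 subunits of the 19S cap. The cap genes are 6 ATPases, 3 other base subunits and 8 lid subunits. The rest are 3 cap assembly chaperones, 4 core assembly chaperones, 4 activators and 1 inhibitor, PSMF1.

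The proteasome is the barrel-shaped protease that degrades proteins tagged with ubiquitin. Alpha rings form the gate of the core, the inner beta rings carry the proteolytic sites, and the cap binds the tagged protein, removes the tag and unfolds the chain. PSMB5, PSMB6 and PSMB7 are the catalytic subunits of most cells, and interferon signalling induces PSMB8, PSMB9 and PSMB10, which take their places in newly built cores and change which peptides are cut for antigen presentation. In skeletal muscle the pathway removes regulators during differentiation and myofibrillar proteins during atrophy.

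RNA was measured in C2C12, a mouse myoblast line, and in LHCN-M2, a human myoblast line kept dividing by introduced TERT and CDK4. C2C12 was sampled on days 0, 1 and 6 of differentiation. LHCN-M2 was sampled on days 0, 1 and 12. Each of these 6 groups holds 4 libraries, all with the genotype label control. No treatment beyond the day is given in the labels. Each species is represented by 1 line, so line and species cannot be told apart, and the last days differ in time. The labels leave unsaid whether a group's libraries came from separate cultures, and the spread behind each p-value may therefore be technical.

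The C2C12 libraries held 32795699 to 43827517 counts and the LHCN-M2 libraries 33030258 to 48546621. All 8 myoblast and myotube markers were found in both lines, and their summed level was 266 to 284 CPM (a gene's counts relative to the library total) in the C2C12 libraries of day 0 and 2470.4 to 2636 in those of day 6. The LHCN-M2 libraries held 723 to 1019 CPM on day 0 and 5389 to 5709 on day 12. Against day 0, all 8 rose at day 6 of C2C12. At day 12 of LHCN-M2, 7 of them rose and 1 fell (log2 fold change -4.24). Of 6 immune markers, 5 or 6 were under 1 CPM in every group, with a summed level of at most 4.603 CPM. The 4 fibroblast markers summed to 98.0 to 119.8 CPM on day 0 and 43.9 to 49.3 on day 6 of C2C12, and to 185 to 278 on day 0 and 384 to 438 on day 12 of LHCN-M2, with THY1 under 1 CPM throughout C2C12 and DPT throughout LHCN-M2. These sums hide opposite changes. Of the 3 tested in each line, 2 rose and 1 fell against day 0, by -1.87 at day 6 of C2C12 and -1.70 at day 12 of LHCN-M2. The 3 endothelial markers reached at most 0.584 CPM in C2C12, and in LHCN-M2 they went from 9.26 to 15.4 CPM on day 0 to 0.474 to 1.35 on day 12, with PECAM1 and CDH5 under 1 CPM. The part of these markers in the results was not tested. Replicate 2 of LHCN-M2 day 0 stood apart: its proteasome genes summed to 6933 CPM, against 4891 to 5244 in the other day 0 libraries. Its deviations from the day 0 mean correlated with gene length across genes (Spearman -0.33; genes are not independent replicates), and the part of this in the results was not tested. Correlations of the same sign were found for replicate 1 of C2C12 day 0 (-0.24), replicate 2 of C2C12 day 6 (-0.23) and replicate 1 of LHCN-M2 day 12 (-0.28), whose members deviated upward by a median of 0.18, 0.08 and 0.17, against 0.55 in the library that stood apart. Values without that library are given for the genes that lead a comparison, and smaller falls, such as those of PSMB6 (-0.77) and PSMB7 (-0.52) at day 1 of LHCN-M2, were -0.51 and -0.30 without it.

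Of the 48 genes, 46 passed the filter on low counts in each line. PSMA8, a core subunit of the testis, had 0 counts in every library, and PSMB11, the beta subunit of thymic epithelium, had 6 counts in all C2C12 libraries and 8 in all LHCN-M2 libraries. Per length, the constitutive core genes of C2C12 at day 0 ran from 28.7 CPM per kb (PSMA3) to 128 (PSMB4), with a median of 55.0 over 14 genes, and the cap genes from 14.2 (PSMD11) to 103 (PSMC3), with a median of 39.4 over 17 genes. The immunoproteasome genes lay below, at 1.76 (PSMB9), 3.84 (PSMB8) and 14.3 (PSMB10) CPM per kb. In LHCN-M2 at day 0 the core and cap medians were 49.6 and 29.6 CPM per kb, and PSMB10, PSMB9 and PSMB8 stood at 3.54, 6.38 and 17.9. The order within the immunoproteasome therefore differed: PSMB10 was the highest of these 3 levels in C2C12 and the lowest in LHCN-M2. The lowest core genes of LHCN-M2 at day 0, PSMA6 (0.297 CPM per kb) and PSMA2 (0.676), lay below all 3 immunoproteasome genes.

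Some levels may carry a limit of counting. The human overlaps given here are between whole gene spans, introns included, and shared exon bases were not examined in human. In the deposited annotation, 13 human members share bases with another gene model on the same strand and 25 with one on the opposite strand. Among the former, PSMA6, PSMA2, PSMB10, PSMD9 and PSMA1 averaged 1.81, 3.68, 7.30, 7.45 and 17.6 CPM over the LHCN-M2 libraries. These 5 were chosen after their values were seen, and the part of the overlap in their level was not tested. PSMB8 (GRCh38 chromosome 6, 32840717 to 32844703, minus strand) and PSMB9 (chromosome 6, 32844136 to 32859585, plus strand) share 568 bases, and PSMB9 shares 8770 bases with TAP1, a peptide transporter gene, on the opposite strand. In mouse, 11 members share exon bases with a gene on the opposite strand in the GENCODE annotation of mm10, among them PSMB9 with TAP1 and PSMB8 with Gm20496. Without a stated strand setting, reads from exon bases shared across strands cannot be told apart, which bears on the mouse PSMB8 and PSMB9 values. Whether this holds for the human pairs was not tested.

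Promoters are shown for 4 mouse genes, each of which holds a motif match. They are the immunoproteasome genes Psmb8 and Psmb9, which fell relative to their counterparts at day 6, and Psmb5 and Psmd6, a constitutive core gene and a cap gene that rose. The windows are RefSeq sequences on GRCm38.p6, the 250 bases before the gene start, read on the strand of the gene from 5′ to 3′: Psmb8 at chr17:34197945-34198194 (plus), Psmb9 at chr17:34187331-34187580 (minus), Psmb5 at chr14:54617996-54618245 (minus) and Psmd6 at chr14:14120946-14121195 (minus). Capitals mark matches to the motifs searched.
Psmb8: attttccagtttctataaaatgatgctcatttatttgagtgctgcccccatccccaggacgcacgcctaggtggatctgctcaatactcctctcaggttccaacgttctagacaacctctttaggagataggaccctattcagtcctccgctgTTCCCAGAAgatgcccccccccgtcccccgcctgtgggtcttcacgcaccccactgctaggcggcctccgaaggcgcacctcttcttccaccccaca
Psmb9: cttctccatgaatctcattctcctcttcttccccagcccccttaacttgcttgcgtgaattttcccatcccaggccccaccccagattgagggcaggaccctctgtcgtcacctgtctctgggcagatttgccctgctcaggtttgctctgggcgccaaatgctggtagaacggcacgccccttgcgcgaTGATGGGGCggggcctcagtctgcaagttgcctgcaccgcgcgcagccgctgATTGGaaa
Psmb5: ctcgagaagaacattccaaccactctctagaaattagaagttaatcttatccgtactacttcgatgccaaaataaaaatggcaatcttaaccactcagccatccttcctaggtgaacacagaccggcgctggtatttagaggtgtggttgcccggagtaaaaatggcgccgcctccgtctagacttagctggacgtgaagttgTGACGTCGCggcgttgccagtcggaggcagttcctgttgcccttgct
Psmd6: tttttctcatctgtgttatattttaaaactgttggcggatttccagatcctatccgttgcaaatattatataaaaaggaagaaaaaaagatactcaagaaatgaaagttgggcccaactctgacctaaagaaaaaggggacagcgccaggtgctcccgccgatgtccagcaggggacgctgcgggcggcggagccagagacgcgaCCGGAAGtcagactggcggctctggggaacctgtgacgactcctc

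In Psmb8 the capitals mark a gamma-activated site, a motif of interferon-induced promoters, whose first base lies at -97 when the base before the start is -1. In Psmb9 they mark an antioxidant response element core at -60 and a CCAAT box on the other strand at -8. Psmb5 has an antioxidant response element core at -47. Psmb5 and Psmb8 also hold one after the start, outside the stretch shown. Psmd6 has an ETS core at -45. The 250 bases before the start of Psmb10, Psme1 and Psmc4, not shown, held no match. Those of Psma3, not shown either, held a CCAAT box at -139. Both strands were searched for 5 motifs in windows from 250 bases before to 50 bases after the start, which were found for 40 of the 48 members. The antioxidant response element core, TGANNNNGC, was in 23 of these 40 genes (57.5%, against 45.0% of all 27025 genes with a window), among them all 4 constitutive beta genes with a window (PSMB3, PSMB4, PSMB5 and PSMB6). The ETS core, CCGGAAG, was in 14 (35.0%, against 9.93%), of which 9 were cap genes and none a beta ring gene. CCAAT, in 14 genes (35.0%, against 41.1%), was found in 5 of the 7 alpha ring genes. The interferon-stimulated response element core, searched as GAAA, any 2 bases and GAAA, was in 5 (12.5%, against 3.99%), namely PSME1, PSMB3, PSMD4, PSMD9 and PSMG4, and TTCNNNGAA, the gamma-activated site, in 3 (7.50%, against 9.55%). The motifs were searched separately, so matches of different motifs may overlap, and a match of letters is a description of the window only.

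In C2C12, proteasome transcripts were high at day 6. Against day 0, 39 of 46 genes rose and 3 fell (33.1% of all tested genes rose and 32.5% fell, 65.6% in all), with a median log2 fold change of 0.60, against -0.03 over all tested genes. The constitutive core rose in 13 of 14 genes (median 0.48), the exception being PSMB1 (0.10, adjusted p = 0.179). The cap rose in 16 of 17 genes (median 0.86), and PSMD3, a lid subunit, fell. Summed over genes, the core held 1805 to 2134 CPM in the day 0 libraries and 2475 to 2745 in the day 6 libraries, and the cap 2409 to 2657 and 4081 to 4336, as the plot of summed levels shows. The day 0 and day 6 libraries did not overlap in either sum.

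**Figure D1:**
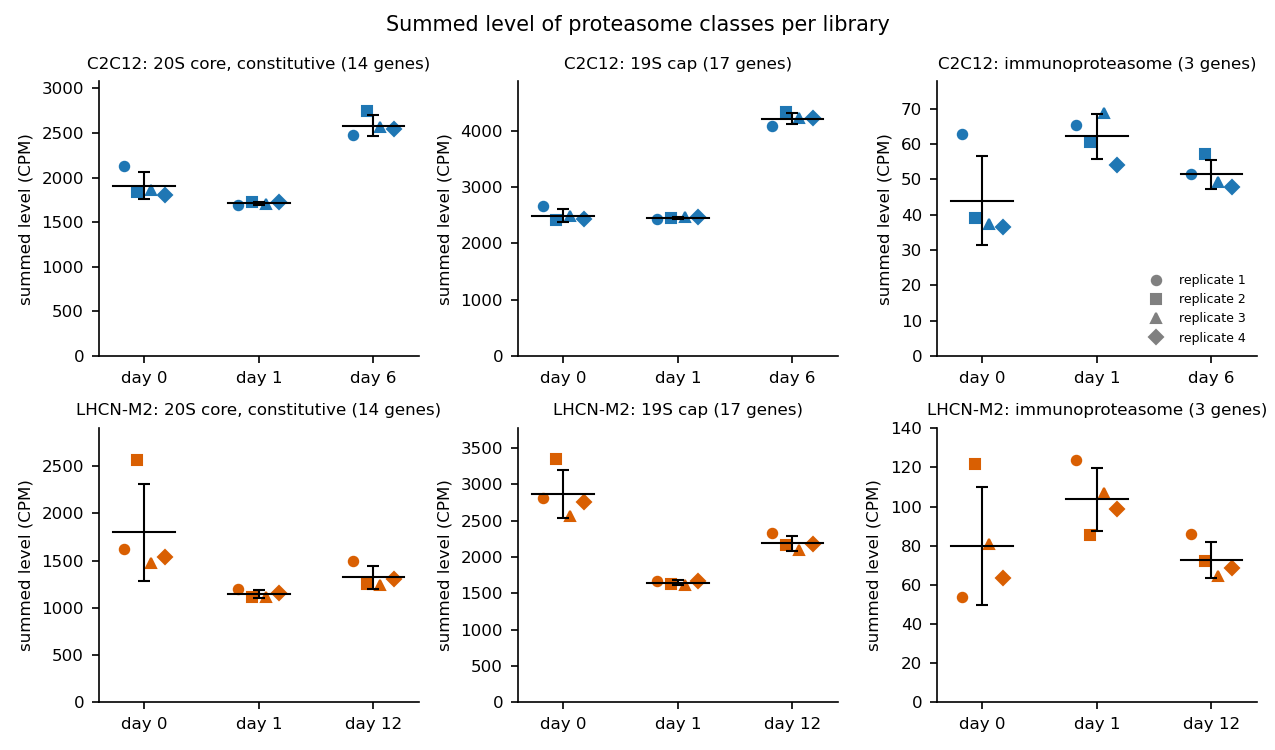
Summed level in CPM (vertical axis) of the 14 constitutive core, 17 cap and 3 immunoproteasome genes in every library by day; points are libraries, with the replicate given by the marker, and bars are the mean and SD of 4. In C2C12 the core and cap sums are highest at day 6, in LHCN-M2 lowest at day 1, and replicate 2 of LHCN-M2 day 0 lies above its group in all 3 panels.

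Cap genes held the largest rises of C2C12. PSMD6, a lid subunit, stood at 79.2, 75.5, 74.7 and 72.2 CPM in the day 0 libraries, at 93.6, 90.03, 92.6 and 92.8 at day 1 and at 179, 195, 186 and 182 at day 6. It rose at each step with no overlap between days, by 2.45-fold over the whole course (log2 fold change 1.29, SE 0.05, adjusted p = 5.18e-15). PSMC4, an ATPase of the base, was at 65.6, 62.0, 61.1 and 64.3 CPM at day 0, at 81.6, 75.2, 76.7 and 78.5 at day 1 and at 146, 164, 147 and 153 at day 6 (day 6 against day 0 1.27, SE 0.05, adjusted p = 2.26e-14). The ATPase gene PSMC5 went from 95.4, 83.3, 90.5 and 85.1 CPM through 108, 109.8, 122 and 109.5 to 175, 187, 187 and 188 (1.06, SE 0.06, adjusted p = 1.11e-12). In all 3 genes every library of a later day lay above every library of the day before it. PSMD13 (1.05), PSMD8 (1.01) and PSMC1 (1.01), which are also cap genes, had the next largest rises. In the core, PSMA3 (0.95), an alpha ring subunit, and PSMB3 (0.83), a beta ring subunit without a catalytic site, had the largest rises.

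Of the 3 falls at day 6 against day 0, those of PSMD3 and the activator PSME1 were smaller than that of PSMB9 (-0.89). PSMB9 was the only immunoproteasome gene called lower. PSMD3 stood at 107, 98.2, 93.5 and 103 CPM at day 0 and at 88.1, 94.2, 88.0 and 91.0 at day 6 (-0.15, SE 0.06, adjusted p = 0.0233), with libraries that overlapped. The call for PSMD3 was lost without replicate 1 of day 0 (adjusted p = 0.0558) or without replicate 1 of day 6 (adjusted p = 0.0648). PSME1, which with PSME2 forms the interferon-inducible activator ring, was at 129, 106, 108 and 105 CPM at day 0, at 120.1, 126, 117 and 117 at day 1 and at 92.6, 105, 92.7 and 92.4 at day 6 (-0.23, SE 0.07, adjusted p = 0.00489). Its partner PSME2 went the other way, from 137, 103, 117 and 109 CPM to 127, 132, 135 and 131 (0.17, SE 0.07, adjusted p = 0.0389), with days that overlapped, and its call was lost under most other settings (adjusted p from 0.0516 with DESeq2 to 0.213 without replicate 2 of day 0). The nuclear activator PSME3 (0.64), the activator PSME4 (0.32) and the inhibitor PSMF1 (0.76) rose. PSMF1 stood at 31.8, 28.1, 25.6 and 24.9 CPM at day 0, at 36.5, 33.6, 29.95 and 36.6 at day 1 and at 48.2, 50.5, 45.4 and 43.5 at day 6.

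Most of the C2C12 rise came after day 1. Day 1 against day 0 gave 12 genes higher and 12 lower of 46 (25.9% of all tested genes were higher and 24.4% lower, 50.3% in all), so the share of members that changed was close to that of all genes in both directions. No constitutive core gene rose and 6 of 14 fell (median -0.14), whereas 6 of 17 cap genes rose and 3 fell (median -0.05). PSMG4, a chaperone of core assembly, had the largest fall, from 32.8, 22.1, 24.4 and 21.8 CPM to 13.0, 9.97, 13.6 and 14.6 (-0.98, SE 0.13, adjusted p = 1.64e-06). It was back at 22.1, 26.1, 23.0 and 21.7 CPM at day 6, and the later rise also passed the test (0.86, SE 0.13, adjusted p = 4.97e-06). PSMC6, an ATPase, fell from 264, 227, 251 and 222 CPM to 177, 183, 177 and 178 (-0.43, SE 0.05, adjusted p = 1.41e-06), with no overlap. The count of members lower at day 1 was 6 without replicate 1 of day 0, and 7 without replicate 1 or replicate 4 of day 1. Over all tested genes 3544, 3537 and 3516 were lower in these fits, in place of 4161. Any other library of days 0 and 1 left out also lowered the count. The full range was 6 to 9 members lower, with 3494 to 3564 of all tested genes lower.

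From day 1 to day 6, 38 of 46 genes rose and 3 fell (32.8% of all tested genes rose and 28.6% fell, 61.4% in all), with a median of 0.64. All 14 constitutive core genes (median 0.63) and 16 of 17 cap genes (median 0.78) rose. PSMD8, a lid subunit, went from 151, 142, 124 and 141 CPM at day 1 to 309, 346, 303 and 314 (1.19, SE 0.07, adjusted p = 6.17e-12). The ATPase gene PSMC1 rose from 139.6, 141, 153 and 150.4 CPM to 299, 320.3, 333 and 309 (1.11, SE 0.05, adjusted p = 3.63e-13). PSME1 (-0.33), PSMB10 (-0.29) and PSMD3 (-0.15) were the 3 that fell. The 3 comparisons of a line share libraries, so their counts are not independent of each other.

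Proliferation markers moved beside these changes. The 3 of them summed to 1200.5 to 1263 CPM in C2C12 on day 0, then to 830.4 to 901, and on day 6 to 1206 to 1403. In LHCN-M2 the sums were 670.4 to 1037 CPM on day 0, 71.8 to 86.6 on day 1 and 154 to 172 on day 12. Their part in the proteasome values was not tested. In bulk RNA, fewer cells of a type and less RNA per cell cannot be told apart.

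In LHCN-M2 the same genes fell on the first day. Against day 0, 32 of 46 genes were lower at day 1 and 1 was higher (23.5% of all tested genes were lower and 23.4% higher, 46.9% in all), with a median log2 fold change of -0.51, against 0.03 over all tested genes. The constitutive core fell in 12 of 14 genes (median -0.51) and the cap in 15 of 17 (median -0.69), and no gene of either rose. The core held 1474 to 2567 CPM in the day 0 libraries and 1111 to 1203 in those of day 1, and the cap 2569 to 3346 and 1614 to 1674, with no overlap between the days. Without replicate 2 of day 0, the core again had 12 genes lower (median -0.30) and the cap 15 (median -0.58), while 5 members rose in place of 1. In that fit, 4990 of all tested genes were higher and 4475 lower.

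**Figure D2:**
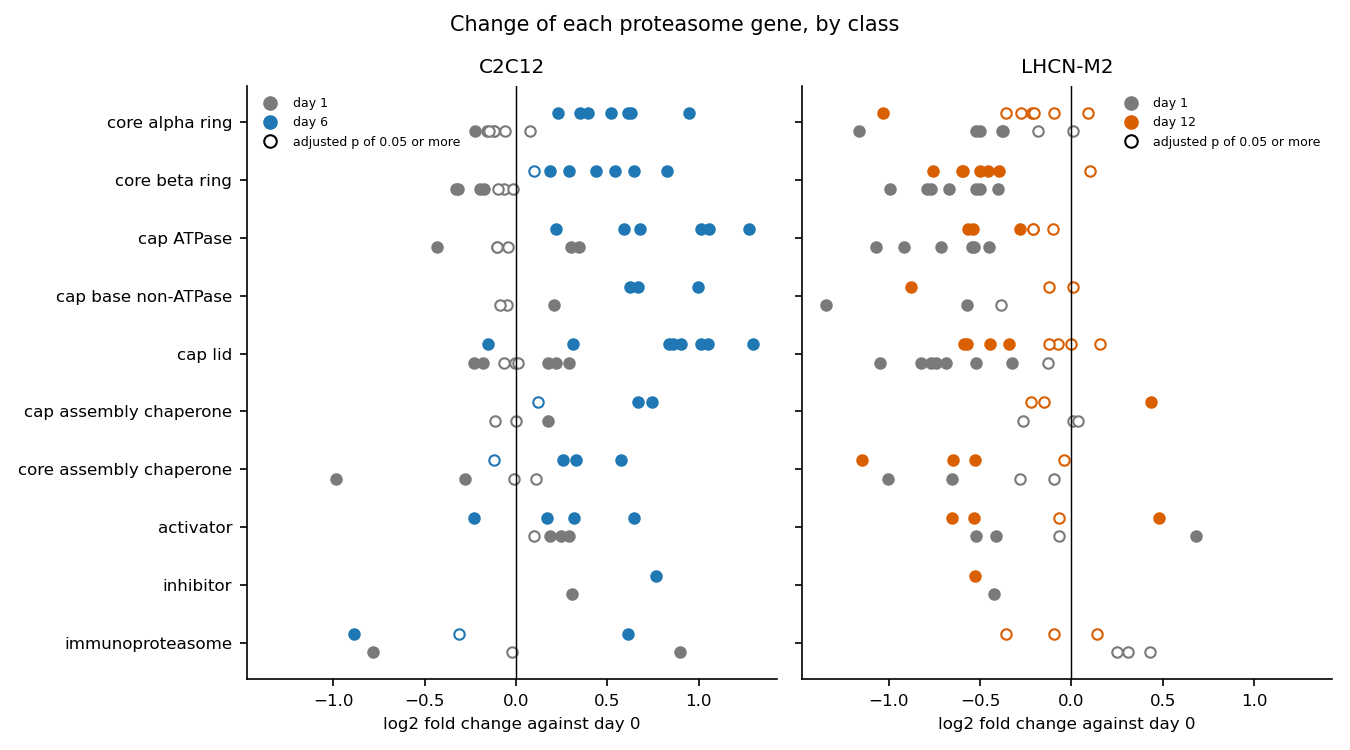
Log2 fold change against day 0 (horizontal axis) of each tested proteasome gene by class (rows), at day 1 in gray and at the last day in colour, for C2C12 (left) and LHCN-M2 (right); filled points passed the adjusted p of 0.05 and open points did not. Of the core and cap genes, all but PSMD3 lie to the right at day 6 in C2C12 and most lie to the left at both later days in LHCN-M2, while the 3 immunoproteasome genes lie on both sides in C2C12.

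PSMD2, a scaffold of the cap base, had the largest fall of LHCN-M2 at day 1. Its libraries stood at 722, 766, 659 and 726 CPM at day 0, at 288, 278, 274 and 292 at day 1 and at 418, 393, 369 and 381 at day 12, with no overlap between any days. Day 1 was 2.54-fold below day 0 (-1.34, SE 0.07, adjusted p = 3.66e-10). PSMA7, an alpha ring subunit, fell from 259.9, 431, 219 and 236 CPM to 131, 115, 123 and 143 (-1.16, SE 0.17, adjusted p = 5.85e-05). The high value of 431 belongs to replicate 2, and without that library the fall was -0.88. The ATPase gene PSMC3 fell from 194, 298, 171 and 183 CPM to 100.8, 97.8, 98.8 and 106 (-1.07, SE 0.14, adjusted p = 1.7e-05). PSMD14 (-1.05), the subunit that cuts ubiquitin off the substrate, and PSMG3 (-1.005), a core assembly chaperone, had the next largest falls. When replicate 2 of day 0 was left out, PSMD2 again fell most (-1.29), while PSMD14 was at -0.94, PSMC3 at -0.84 and PSMG3 at -0.60. PSMD6, the strongest riser of C2C12, was at 86.5, 107, 85.9 and 86.6 CPM at day 0 and at 84.2, 86.8, 78.8 and 84.4 at day 1 (-0.13, SE 0.08, adjusted p = 0.232).

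PSME1 was the member that rose. It stood at 58.9, 110.2, 66.0 and 56.3 CPM at day 0, at 139, 103, 111 and 114 at day 1 and at 122, 93.3, 101 and 90.5 at day 12. Replicate 2 of day 0, at 110.2, lay within the range of day 1, and the other 3 day 0 libraries lay below all later ones. The rise at day 1 was 0.68 (SE 0.18, adjusted p = 0.00643), and 0.97 without replicate 2 of day 0. PSME2, its partner in the ring, was at 70.6, 138, 81.1 and 73.3 CPM at day 0 and at 97.8, 76.3, 89.1 and 82.7 at day 1 (-0.07, SE 0.18, adjusted p = 0.778). Leaving out replicate 2 of day 0 turned the PSME2 difference to 0.22 (adjusted p = 0.0467). The other activators fell, PSME3 by 0.52 and PSME4 by 0.41 on the log2 scale, as did PSMF1 by 0.42.

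By day 12 most cap genes had risen again, and few core genes passed the test. From day 1 to day 12, 17 of 46 genes rose and 3 fell (20.9% of all tested genes rose and 18.8% fell, 39.8% in all), with 13 of 17 cap genes higher (median 0.43) and 2 of 14 core genes higher (median 0.14). The summed core level rose without overlap, from 1111 to 1203 CPM in the day 1 libraries to 1243 to 1494 in those of day 12, and the cap sum from 1614 to 1674 to 2091 to 2330. The difference between these 2 classes was not tested. In a fit of only the 8 libraries of these days, 24 members rose and 5 fell, while over all genes 4712 rose and 4310 fell in place of 3814 and 3433. PSMB5, the chymotrypsin-like core subunit, had the largest rise: it stood at 176, 263, 153 and 167 CPM at day 0, at 123, 111, 119 and 124 at day 1 and at 241, 187, 184 and 204 at day 12 (day 12 against day 1 0.78, SE 0.14, adjusted p = 0.000498). PSMD8, a lid subunit, went from 127, 122, 115 and 123 CPM to 200.4, 173, 184 and 193 (0.62, SE 0.09, adjusted p = 4.36e-05). PSMD1, a scaffold of the base, went from 155, 167, 151 and 156 CPM to 233, 241, 235 and 234 (0.58, SE 0.06, adjusted p = 3.47e-06). In these 3 genes every library of day 12 lay above every library of day 1. The largest falls were in PSME2 (-0.58, SE 0.18, adjusted p = 0.0164), from 97.8, 76.3, 89.1 and 82.7 to 67.0, 52.2, 53.5 and 57.9 CPM, in PSMB8 (-0.52), and in PSMG2 (-0.43, SE 0.12, adjusted p = 0.0107), a core assembly chaperone that went from 36.8, 39.1, 34.3 and 36.4 to 29.2, 23.5, 30.7 and 25.4 CPM. The PSME2 call was lost without replicate 1 of day 1 (adjusted p = 0.0518) or replicate 2 of day 12 (adjusted p = 0.0513).

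Against day 0, day 12 of LHCN-M2 had 22 of 46 genes lower and 2 higher (27.5% of all tested genes were lower and 27.1% higher, 54.6% in all), with a median of -0.28. The core was lower in 7 of 14 genes (median -0.38), 6 of them in the beta ring, and the cap in 9 of 17 (median -0.21). Without replicate 2 of day 0 these counts were 7 and 7, with medians of -0.18 and -0.12, and PSMB5 was higher (0.31, adjusted p = 0.00255). Over all tested genes 5458 were higher and 5184 lower in that fit. With all libraries PSMG3 had the largest fall, from 25.7, 53.5, 22.1 and 23.8 CPM to 18.05, 12.2, 12.1 and 14.1 (-1.15, SE 0.24, adjusted p = 0.00086). PSMA7 was at 163, 130.0, 124 and 144 CPM at day 12 (-1.03, SE 0.17, adjusted p = 0.000135), below its 4 day 0 libraries, and PSMD2 was at -0.88 (adjusted p = 2.93e-08). When replicate 2 of day 0 was left out, PSMD2 fell most (-0.84), followed by PSMA7 (-0.76) and PSMG3 (-0.75). PSME1 (0.48, SE 0.18, adjusted p = 0.0363) and PSMD10 were higher, and PSME1 was at 0.76 without replicate 2 of day 0. The PSME1 call was lost without any 1 of 5 libraries (replicates 1, 3 and 4 of day 0, replicates 1 and 3 of day 12; adjusted p from 0.0644 to 0.112). PSMD10, a cap assembly chaperone also called gankyrin, stood at 55.2, 54.3, 53.9 and 52.6 CPM at day 0, at 53.1, 54.0, 54.4 and 55.9 at day 1 and at 77.1, 73.9, 71.4 and 70.4 at day 12 (0.44, SE 0.06, adjusted p = 3.57e-05). Its day 0 and day 1 libraries overlapped, and all of day 12 lay above both.

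The lines were compared by testing the difference of their fold changes in 1 fit. At the last day the change in LHCN-M2 lay below that in C2C12 for 39 of 46 genes and above it for 2 (40% of the 10953 matched genes tested were lower and 31.2% higher, 71.2% in all), with a median difference of -0.89, against -0.13 over all matched genes. All 17 cap genes (median -1.13) and 13 of 14 core genes (median -0.71) were among the 39. The members that rose in C2C12 and fell in LHCN-M2 numbered 20, a count that the 39 of 46 and 22 of 46 called in each line largely fix. PSMG3 (-1.72, SE 0.36, adjusted p = 0.00019), PSMD13 (-1.62, SE 0.14, adjusted p = 3.04e-10) and PSMC5 (-1.60, SE 0.18, adjusted p = 1.62e-08) differed most with all libraries. PSME1 (0.71, SE 0.21, adjusted p = 0.00405) and PSMD10 (0.32, SE 0.08, adjusted p = 0.00124) were the 2 whose change was higher in LHCN-M2. Without replicate 2 of LHCN-M2 day 0 the count of lower genes was again 39, with a median of -0.75. Over all matched genes 4492 were lower and 3668 higher in that fit. PSMD2 (-1.51), PSMD13 (-1.45) and PSMC4 (-1.41) then differed most, with PSMG3 at -1.32.

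**Figure D3:**
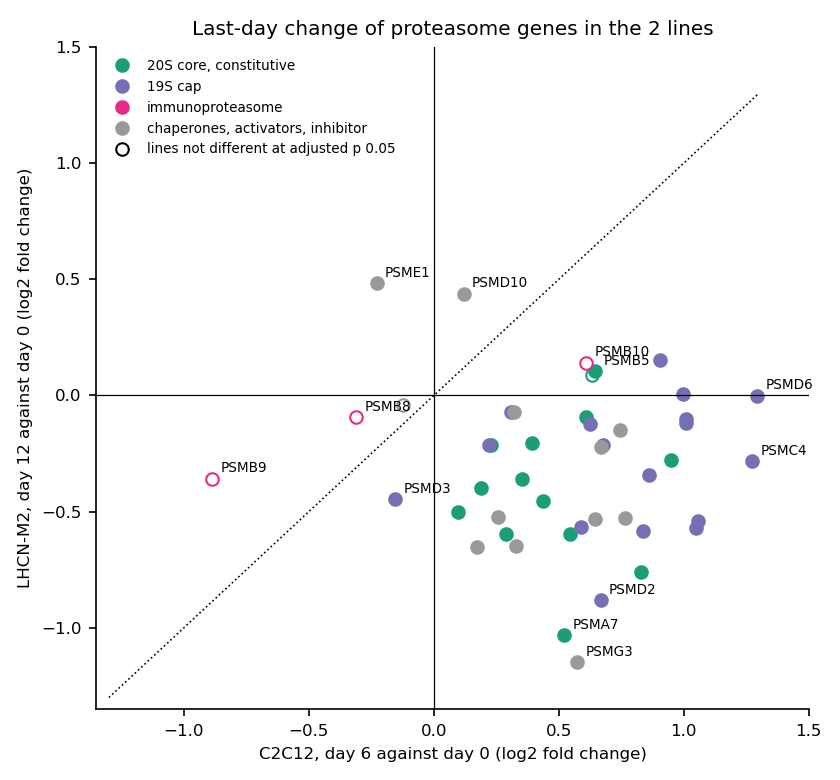
Log2 fold change of each tested proteasome gene at the last day against day 0 in C2C12 (horizontal axis, day 6) and LHCN-M2 (vertical axis, day 12), coloured by class; filled points differ between the lines at an adjusted p of 0.05, open points do not, and the dotted line marks equal change. All 17 cap genes lie below the dotted line, and the 3 immunoproteasome genes are open.

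On the first day the change was lower in LHCN-M2 for 27 genes and higher for 3 (34% and 26% of matched genes, 60% in all), with a median of -0.43 against -0.09 over all matched genes. The cap differed in 15 of 17 genes (median -0.68) and the core in 7 of 14 (median -0.34). Without replicate 2 of LHCN-M2 day 0 the core count was 5 (median -0.12) and the cap count again 15 (median -0.57). Over all matched genes the change was lower in LHCN-M2 for 3843 and higher for 3310 in that fit. From day 1 to the last day the change was lower in LHCN-M2 for 29 genes and higher for 2 (29.9% and 27% of matched genes, 56.9% in all), with a median of -0.44. Those 2 were PSMD3 (0.39) and PSMD10 (0.20).

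The immunoproteasome genes did not share the course of the core and cap. In C2C12, PSMB10 was the only 1 of the 3 to rise: its libraries stood at 32.7, 22.5, 21.5 and 21.02 CPM at day 0, at 50.7, 42.6, 49.4 and 39.6 at day 1 and at 37.3, 43.0, 34.6 and 34.7 at day 6. Day 1 lay above day 0 without overlap (0.90, SE 0.12, adjusted p = 2.59e-06), and day 6 remained above day 0 (0.61, SE 0.12, adjusted p = 0.00014). The fall from day 1 to day 6 (-0.29, adjusted p = 0.04) was lost when any 1 of 5 libraries was left out (replicates 1 and 3 of day 1, replicates 1, 3 and 4 of day 6; adjusted p from 0.0558 to 0.0706). PSMB9 fell, from 9.78, 5.58, 5.31 and 5.18 CPM at day 0 to 4.07, 4.13, 4.72 and 2.11 at day 1 and 3.35, 4.09, 3.49 and 3.10 at day 6. All day 0 libraries lay above all later ones (day 6 against day 0 -0.89, SE 0.23, adjusted p = 0.00218). The day 1 value of -0.78 (SE 0.23, adjusted p = 0.00751) was -0.47 (adjusted p = 0.0766) without replicate 1 of day 0. PSMB8 stood at 20.2, 11.1, 10.4 and 10.2 CPM at day 0, at 10.5, 13.8, 14.7 and 12.3 at day 1 and at 10.9, 10.02, 11.04 and 9.94 at day 6, and none of its comparisons passed the threshold. Replicate 1 of day 0 was high in all 3 genes, and without it PSMB8 rose at day 1 (0.32, adjusted p = 0.0328). The PSMB8 fall at day 6 against day 0 passed with no filter on low counts (-0.34, adjusted p = 0.0125). It also passed without replicate 4 of day 0 (-0.42, adjusted p = 0.0456). Against day 1 the fall passed with no filter (adjusted p = 0.0166) or with only the 8 libraries compared (adjusted p = 0.0159), at -0.33 each.

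In LHCN-M2 the immunoproteasome calls at day 1 depended on replicate 2 of day 0, and that of PSMB8 also on the filter. PSMB8 stood at 37.6, 81.2, 54.4 and 41.5 CPM at day 0, at 83.9, 60.7, 74.9 and 69.8 at day 1 and at 59.7, 48.7, 45.4 and 47.5 at day 12. PSMB9 was at 10.9, 30.8, 19.4 and 17.2 CPM, then at 31.6, 17.7, 23.8 and 20.3, and then at 19.1, 14.1, 13.0 and 15.0. PSMB10 was at 5.03, 9.52, 7.05 and 4.61 CPM, then at 8.27, 7.10, 8.40 and 8.75, and then at 7.04, 9.65, 6.16 and 6.10. With all libraries, the differences at day 1 were 0.43 (SE 0.19, adjusted p = 0.0821), 0.25 (SE 0.25, adjusted p = 0.442) and 0.31 (SE 0.21, adjusted p = 0.252) for PSMB8, PSMB9 and PSMB10. Without replicate 2 of day 0, which was the highest day 0 library of each gene, they were 0.72 (adjusted p = 4.89e-05), 0.57 (adjusted p = 0.0155) and 0.57 (adjusted p = 0.0125). With all libraries and no filter on low counts, PSMB8 also passed at day 1 (0.44, adjusted p = 0.0192). PSMB8 then fell from day 1 to day 12 (-0.52, SE 0.19, adjusted p = 0.0432), with no overlap, a call that was lost without any 1 of 6 libraries (replicates 1, 3 and 4 of day 1, replicates 2, 3 and 4 of day 12; adjusted p from 0.0696 to 0.121), with RLE size factors (adjusted p = 0.0507) or with a replicate block (adjusted p = 0.0627). The PSMB9 value from day 1 to day 12 (-0.61) did not pass in the main fit. It passed with DESeq2 (adjusted p = 0.0486), no filter on low counts (adjusted p = 0.0120) or only the 8 libraries compared (adjusted p = 0.00268). Without replicate 2 of day 1 it was -0.73 (adjusted p = 0.0486). Of the 3 genes, PSMB9 differed between the lines on the first day (1.03, SE 0.38, adjusted p = 0.0211). That call was lost without replicate 1 of C2C12 day 0, replicate 4 of C2C12 day 1 or replicate 1 of LHCN-M2 day 1. The adjusted p was then 0.0962, 0.0643 and 0.0569. PSMB10 did not pass that test on the first day (-0.58, SE 0.26, adjusted p = 0.0543). It did with DESeq2 (adjusted p = 0.0428) and with a minimum of 1 CPM (adjusted p = 0.0491). Without replicate 1 of C2C12 day 0 it also passed (-0.80, adjusted p = 0.00797). Leaving out replicate 2 or 4 of C2C12 day 1 or replicate 1 or 4 of LHCN-M2 day 0 gave adjusted p from 0.0162 to 0.0435. Without replicate 2 of LHCN-M2 day 0 the PSMB10 difference was -0.33 (adjusted p = 0.199). With all libraries none of the 3 passed the test of the difference at the last day. When replicate 2 of LHCN-M2 day 0 was left out, PSMB9 did at the last day (0.84, adjusted p = 0.0247) and PSMB8 on the first day (0.74, adjusted p = 0.00723). PSMB10 passed at the last day without replicate 1 of C2C12 day 0 (-0.64, adjusted p = 0.0261), replicate 4 of LHCN-M2 day 0 (-0.62, adjusted p = 0.0332) or replicate 2 of LHCN-M2 day 12 (-0.63, adjusted p = 0.0319).

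**Figure D4:**
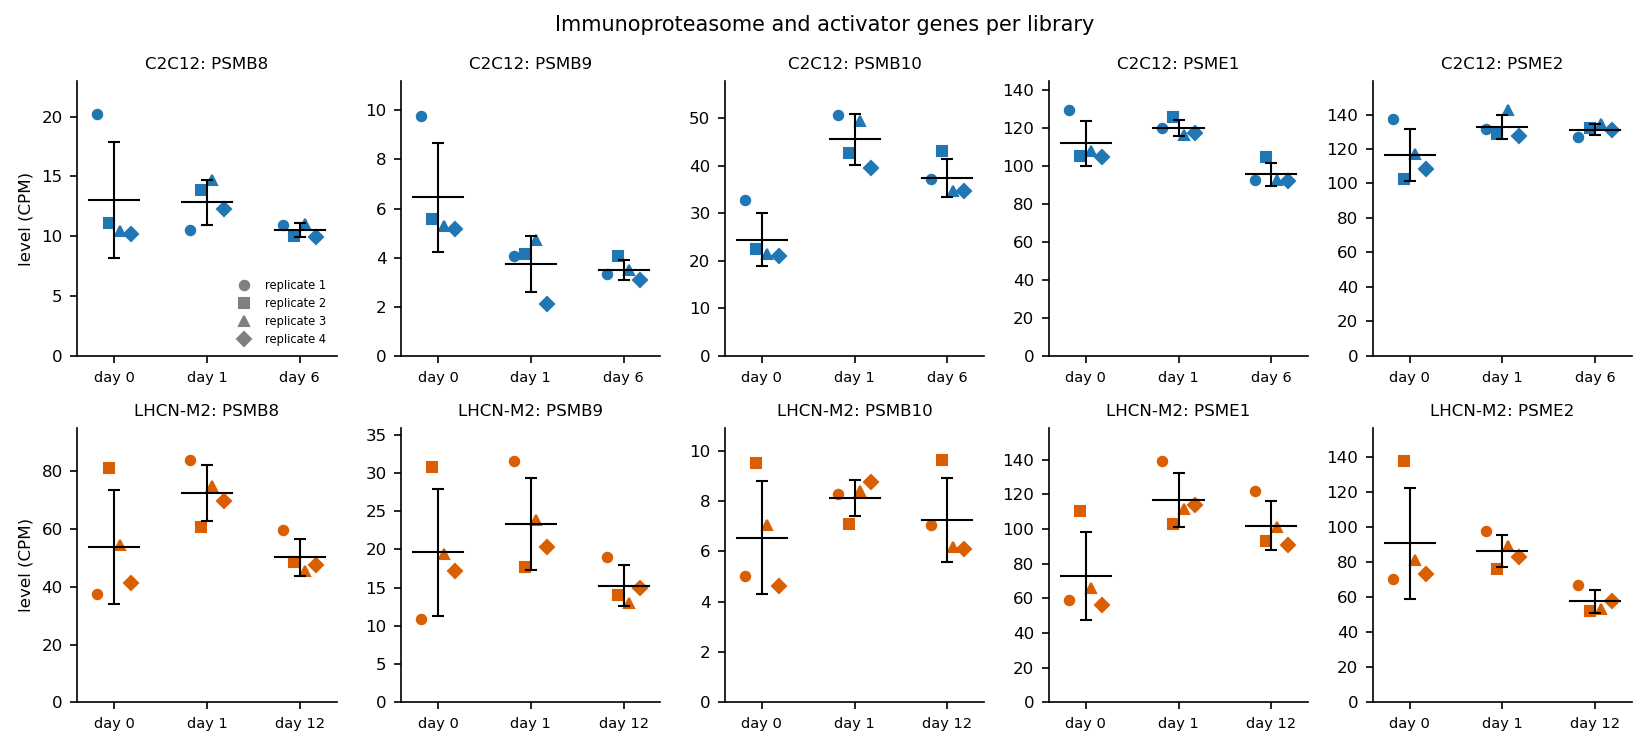
Level in CPM (vertical axis) of PSMB8, PSMB9, PSMB10, PSME1 and PSME2 in every library by day, for C2C12 (top) and LHCN-M2 (bottom); points are libraries with the replicate given by the marker, bars are the mean and SD of 4. Replicate 1 of C2C12 day 0 and replicate 2 of LHCN-M2 day 0 are the highest libraries of their groups in all 5 genes.

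Each immunoproteasome gene was also set against the constitutive subunit whose place it takes, as the ratio of counts per base within a library. This ratio needs no scaling between libraries. The counterparts in C2C12 were PSMB5 at 54.8, 48.9, 45.5 and 44.2 CPM at day 0, 51.2, 41.5, 48.8 and 50.01 at day 1 and 75.7, 79.4, 71.8 and 75.5 at day 6, the caspase-like PSMB6 at 167, 148, 146 and 142, then 120.4, 119.9, 117 and 127, and then 177, 206, 178 and 175, and the trypsin-like PSMB7 at 106, 92.0, 109 and 98.3, then 80.3, 82.4, 96.7 and 93.4, and then 140.2, 146, 163 and 141. All 3 were highest at day 6, without overlap with either earlier day. In LHCN-M2, PSMB6 stood at 118, 187, 97.9 and 105, then 79.0, 73.8, 73.6 and 71.5, and then 102, 77.4, 75.3 and 81.3 CPM. PSMB7 stood there at 163, 245, 143 and 158, then 128, 122, 116 and 128, and then 126, 119, 103 and 122 CPM. Both were below day 0 without overlap at day 1.

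In C2C12 the ratio of PSMB8 to PSMB5 was 0.0981, 0.0601, 0.0610 and 0.0615 at day 0, 0.0545, 0.0886, 0.0799 and 0.0653 at day 1 and 0.0384, 0.0336, 0.0409 and 0.0350 at day 6. Day 6 lay below both earlier days without overlap, 1.86-fold below day 0 and 1.92-fold below day 1 (exact two-sided permutation p = 0.0286 each, the smallest that 4 libraries against 4 allow, adjusted p = 0.0468 over 18 tests). The ratio of PSMB9 to PSMB6 fell 2.18-fold from day 0, at 0.0299, 0.0193, 0.0186 and 0.0187, to day 6, at 0.00966, 0.0102, 0.01005 and 0.00906 (exact permutation p = 0.0286, adjusted p = 0.0468). Day 1 was at 0.0173, 0.0176, 0.0207 and 0.00848 and overlapped day 0 (exact permutation p = 0.229). The ratio of PSMB10 to PSMB7 was 0.620, 0.490, 0.398 and 0.429 at day 0, 1.27, 1.04, 1.02 and 0.850 at day 1 and 0.534, 0.592, 0.425 and 0.494 at day 6. It was 2.17-fold higher at day 1 than at day 0 and 2.04-fold lower at day 6 than at day 1 (exact permutation p = 0.0286 each, adjusted p = 0.0468), while days 0 and 6 overlapped.

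In LHCN-M2 the ratios rose on the first day in all 3 pairs. Both genes of a pair entered this. At day 1 PSMB5, PSMB6 and PSMB7 were at -0.67, -0.77 and -0.52 on the log2 scale. PSMB8, PSMB9 and PSMB10 were at 0.43, 0.25 and 0.31, none past the threshold in the main fit. Without replicate 2 of day 0 the former were at -0.46, -0.51 and -0.30, and the latter at 0.72, 0.57 and 0.57. PSMB8 to PSMB5 went from 0.126, 0.182, 0.209 and 0.146 at day 0 to 0.403, 0.321, 0.371 and 0.333 at day 1, a rise of 2.19-fold, and then to 0.146, 0.153, 0.145 and 0.137 at day 12, a fall of 2.45-fold. PSMB9 to PSMB6 went from 0.0436, 0.0779, 0.0935 and 0.0772 to 0.188, 0.113, 0.153 and 0.134, a rise of 2.05-fold, and then to 0.0885, 0.0858, 0.0812 and 0.0869, a fall of 1.69-fold. PSMB10 to PSMB7 went from 0.0298, 0.0375, 0.0477 and 0.0281 to 0.0624, 0.0562, 0.0696 and 0.0657, a rise of 1.81-fold, and stood at 0.0540, 0.0783, 0.0577 and 0.0484 at day 12, 1.68-fold above day 0. These 6 differences were without overlap (exact permutation p = 0.0286 each, adjusted p = 0.0468). At day 12 against day 0 PSMB7 was at -0.60 and PSMB10 at 0.14 on the log2 scale. Without replicate 2 of day 0 they were at -0.39 and 0.38. The replicate 2 library of day 0, which was high in both genes of each pair, lay inside the range of its group in all 3 ratios. Of the 18 ratio comparisons 11 passed the threshold and 7 did not. The 11 hold the same smallest p, so the adjustment passes them together or not at all. Comparisons within a line share libraries and are not independent.

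**Figure D5:**
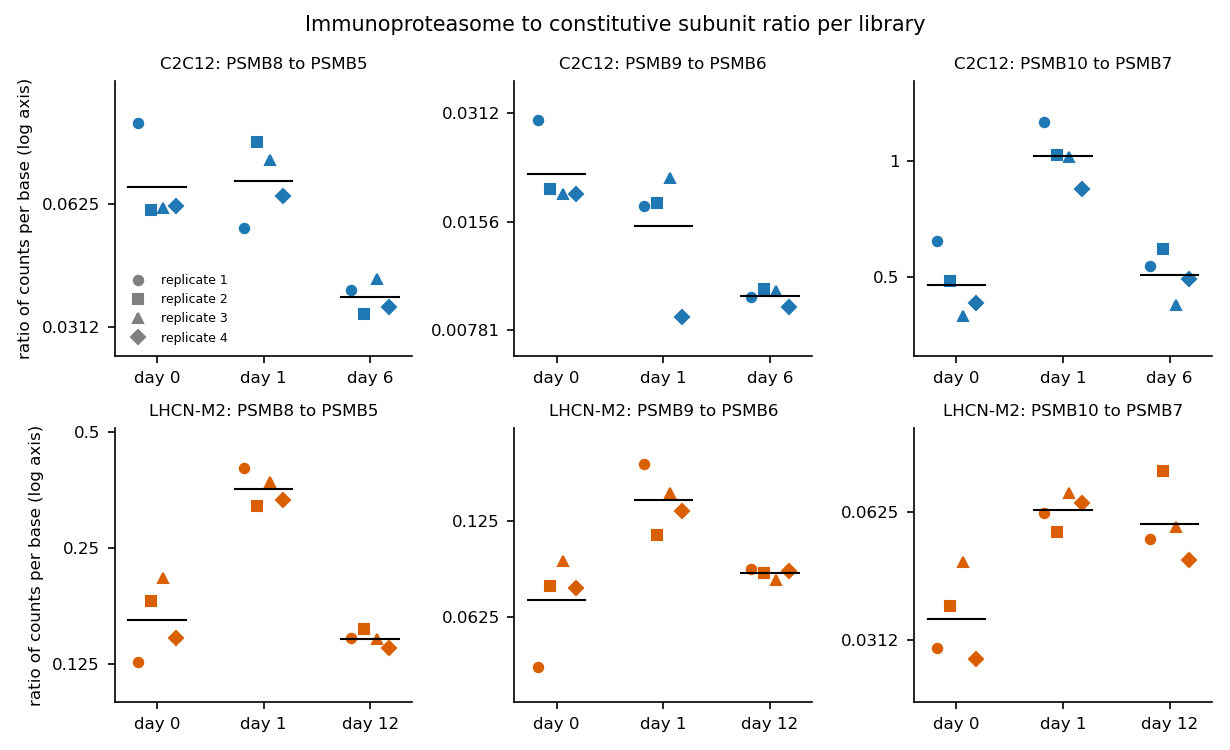
Ratio of counts per base (vertical axis, log scale) of each immunoproteasome gene to its constitutive counterpart in every library by day, for C2C12 (top) and LHCN-M2 (bottom); points are libraries, bars are means of the log2 ratios of 4. In LHCN-M2 day 1 lies above day 0 in all 3 pairs, and in C2C12 day 6 lies below day 0 in the 2 pairs of PSMB8 and PSMB9.

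Genes that work with the proteasome but lie outside the symbol rule were described from a list of 24, of which 23 were found in C2C12. In C2C12, 10 of 23 rose and 6 fell at day 1 (25.9% and 24.4% of all tested genes), 14 rose and 4 fell at day 6 against day 0 (33.1% and 32.5%), and 13 rose and 6 fell from day 1 to day 6 (32.8% and 28.6%). In LHCN-M2, 5 of 24 rose and 13 fell at day 1 (23.4% and 23.5%), 8 rose and 8 fell at day 12 against day 0 (27.1% and 27.5%, near the shares of the list), and 13 rose and 2 fell from day 1 to day 12 (20.9% and 18.8%). POMP, the maturation factor of the core, moved by 0.71 at day 6 of C2C12 (SE 0.06, adjusted p = 1.65e-09), by -0.79 at day 1 of LHCN-M2 (SE 0.15, adjusted p = 0.000414) and by 0.53 from there to day 12 (SE 0.15, adjusted p = 0.00934). NFE2L1, the transcription factor that raises proteasome genes when the proteasome is impaired, fell in C2C12 and rose in LHCN-M2. In C2C12 it stood at 488, 546, 562 and 512 CPM at day 0, at 242, 222, 277 and 251 at day 1 and at 238, 231, 249 and 244 at day 6 (-1.13, SE 0.06, adjusted p = 1.32e-12). In LHCN-M2 it rose from 418, 357, 426 and 421 CPM through 529, 557, 580.1 and 557 to 885, 985, 968 and 1013 (day 12 against day 0 1.25, SE 0.07, adjusted p = 1.44e-09). The activity of NFE2L1 is set after translation, so its transcript is no measure of it.

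Large changes of that list were also found among shuttle factors and regulators. In C2C12 at day 6, ZFAND2A, a stress-induced cap-binding protein, rose by 1.54 against day 0, the segregase cofactor UFD1 by 0.87 and the deubiquitinase USP14 by 0.87. At day 1, ZFAND2A (0.65), the ubiquitin receptor ADRM1 (0.62) and the segregase cofactor NPLOC4 (0.54) had risen, and from day 1 to day 6 the shuttle factor UBQLN2 fell (-0.98) while ZFAND2A (0.89) and USP14 (0.81) rose. In LHCN-M2 at day 1 the deubiquitinase UCHL5 (-1.06) and ADRM1 (-0.72) fell. At day 12 against day 0, DDI2 (1.18), the protease that activates the NFE2L1 protein, ZFAND5 (0.94), an activator of the proteasome, and the transcription factor NFE2L2 (0.81) rose. From day 1 to day 12, UCHL5 (0.70) and DDI2 (0.59) rose. All values are log2 fold changes with an adjusted p under the threshold.

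The antigen presentation and interferon list of 22 genes had 20 tested in C2C12 and 21 in LHCN-M2. At day 1 of C2C12, 7 of 20 rose and 1 fell (25.9% and 24.4% of all tested genes). At day 6 against day 0, 7 rose and 9 fell (33.1% and 32.5%), so the share that rose was near that of all genes. From day 1 to day 6, 4 rose and 12 fell (32.8% and 28.6%). In LHCN-M2, 12 of 21 rose and 4 fell at day 1 (23.4% and 23.5% of all tested genes). At day 12 against day 0, 9 rose and 2 fell (27.1% and 27.5%). From day 1 to day 12, 4 rose and 8 fell (20.9% and 18.8%). The share that fell at day 1 and the share that rose from day 1 to day 12 were near those of all genes. TAP1, the neighbour of PSMB9 on the opposite strand, went from 58.6, 40.4, 35.4 and 37.1 CPM at day 0 of C2C12 to 21.1, 23.3, 25.2 and 18.2 at day 1 (-0.97, SE 0.13, adjusted p = 3.29e-06) and 18.7, 19.2, 15.3 and 16.9 at day 6, and rose in LHCN-M2 at day 1 (0.65, SE 0.16, adjusted p = 0.00415). IRF1, an interferon-induced transcription factor, fell in C2C12 at day 6 (-0.50, adjusted p = 3e-06) and rose in LHCN-M2 at day 12 (0.40, adjusted p = 0.00545).

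Some genes of that list changed more than any proteasome gene. CD74, the chaperone of MHC class II, stood at 9.42 to 11.5 CPM in C2C12 at day 0 and at 0.0485 to 0.170 at day 6 (-6.49), and in LHCN-M2 it rose from 0.216 to 1.19 CPM to 3.50 to 4.93 at day 1 (3.05) and was higher than day 0 at day 12 (2.52). GBP2, an interferon-induced GTPase, rose in LHCN-M2 at day 1 (1.91) and was above day 0 at day 12 (1.65), and STAT2 rose at day 1 (1.41). SOCS1, a brake on interferon signalling, was under 1 CPM in LHCN-M2 at day 1, where it fell by 1.501 on the log2 scale and then rose by 1.13 to day 12, while IRF9 (-1.10), a transcription factor of interferon signalling, and NLRC5 (-1.03), the activator of MHC class I genes, fell. B2M, the light chain of MHC class I, rose in C2C12 at day 6 (1.04, and 0.99 from day 1) and in LHCN-M2 at day 12 (1.23), where the chaperone CALR fell (-0.81). In C2C12, TAPBP (0.51), STAT2 (0.51) and GBP2 (0.48) rose at day 1, TAP1 (-1.29) and IRF2 (-1.01) fell at day 6 against day 0, and CD74 (-6.25), IRF2 (-0.93) and GBP2 (-0.85) fell from day 1 to day 6.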

How the data were processed

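Counts of reads per gene were measured in 12 C2C12 and 12 LHCN-M2 libraries and used as deposited, with no normalization. The submitters' processing notes name featureCounts 2.0.6, StringTie 2.2.3, HISAT2 2.2.1 and fastp, and the builds mm10, GRCh38 and hg38. The annotation release is not given in the sources used here, nor is a strand setting. The build of the deposited mouse positions was not settled, so mouse coordinates are those of the RefSeq windows. Per the labels, poly-T beads captured the RNA and random hexamers primed the cDNA. No library pair of a group agreed within sampling noise (chi-square per degree of freedom 6.32 or more).

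Genes were tested per line with edgeR 4.0.16 in R 4.3.3 (filterByExpr, TMM, quasi-likelihood test, 12 libraries, 1 coefficient per day), leaving 17065 C2C12 and 18214 LHCN-M2 genes, with Benjamini-Hochberg adjustment over all of them and a threshold of 0.05. SE is derived from the log2 fold change and the F statistic. Levels are CPM on TMM-scaled totals, per kb only with the deposited gene length. The lines were compared as an interaction over 24 libraries on 10953 symbols matched ignoring case, with normalization factors computed within each line; symbol matching is no orthology table. Ratios were tested by exact permutation over libraries, adjusted over 18 tests. The script was tested on simulated data. Alternatives were DESeq2 1.42.0, RLE size factors, other filters, only 8 libraries, a replicate block and each library left out. Values per library are given for PSMB5 to PSMB10, PSME1, PSME2 and, per comparison, the members with the 3 largest rises and 3 largest falls past the threshold; of the other lists, the 4 largest changes and NFE2L1, POMP, IRF1 and TAP1, except for items that are not reported here. Members and lists were chosen with earlier results of these data known.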

Additional observations from a re-analysis of the deposited data

Results flagged for a closer look

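Among PSMB5 to PSMB10, PSME1 and PSME2, 7 values lay far from the other libraries of their group (Dixon's test at 95%). Replicate 1 of C2C12 day 0 was high in PSMB8 (20.2 CPM), PSMB9 (9.78 CPM), PSMB10 (32.7 CPM) and PSME1 (129.4 CPM). Replicate 2 of C2C12 day 6 was high in PSMB6 (205.8 CPM) and PSME1 (104.7 CPM), and replicate 2 of LHCN-M2 day 0 in PSME2 (137.9 CPM). Over all tested members, 31 of 276 gene and group pairs were so marked, where chance marks about 1 in 20. Of these, 11 were replicate 2 of LHCN-M2 day 0 and 7 replicate 1 of C2C12 day 0.

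For the same 8 genes, the LHCN-M2 log2 fold change minus that of C2C12 passed the interaction test in 11 cases. On the first day it was -0.66 for PSMB5, -0.45 for PSMB6, 1.03 for PSMB9 and 0.58 for PSME1. At the last day it was -0.54 for PSMB5, -0.88 for PSMB6, -1.14 for PSMB7, 0.71 for PSME1 and -0.82 for PSME2. From day 1 to the last day it was -0.82 for PSMB7 and -0.57 for PSME2. Without replicate 2 of LHCN-M2 day 0 the last-day differences of PSMB5 and PSME2 were -0.33 and -0.54. The PSME2 difference from day 1 to the last day lost its call without any 1 of 4 libraries (replicates 1, 2 and 4 of C2C12 day 1, replicate 3 of C2C12 day 6; adjusted p from 0.0511 to 0.0567). The first-day PSMB6 difference lost its call with a replicate block (adjusted p = 0.0532) and was -0.19 (adjusted p = 0.141) without replicate 2 of LHCN-M2 day 0. Its call was also lost without replicate 4 of C2C12 day 0 (adjusted p = 0.0517). The same held without replicate 2, 3 or 4 of LHCN-M2 day 1 (adjusted p from 0.0593 to 0.0766). The first-day PSME1 difference was 0.46 (adjusted p = 0.0669) without replicate 1 of C2C12 day 0. Without replicate 1 of LHCN-M2 day 1 it was 0.49 (adjusted p = 0.0523).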

How the results depend on the processing

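Of the counts of members and the ratios, 110 of 114 values under other settings stayed within 1.5 times the main count or on the same side of the threshold. The 4 others were LHCN-M2 counts or differences: members higher at day 1 were 2 (1 as reported) with no filter on low counts, members higher at day 12 against day 0 were 1 (2) and members lower from day 1 to day 12 were 5 (3) with only the 8 libraries compared, and members with a higher change in LHCN-M2 from day 1 to the last day were 1 (2) with a replicate block. The labels do not say what a replicate number marks. The 24 same-number pairs correlated between -0.10 and 0.09, and 1 of 24 libraries correlated best with its own number. Counting noise enters these correlations, so they cannot decide whether libraries of a number belong together. The block gave 39 higher and 3 lower at day 6 of C2C12 and 1 higher and 32 lower at day 1 of LHCN-M2, as without it. With 1 library left out, the counts that moved ranged from 6 to 9 (lower, C2C12 day 1 against day 0), 1 to 3 (lower, C2C12 day 6 against day 1), 1 to 5 (higher, LHCN-M2 day 1), 1 to 3 (higher, LHCN-M2 day 12 against day 0), 1 to 4 (lower, LHCN-M2 day 12 against day 1), 1 to 5 (higher in LHCN-M2 than C2C12, first day) and 1 to 3 (the same from day 1 to the last day). The ratios passed no test with a library left out because 3 against 4 allows no p below 0.0571, and the 11 that passed with all libraries kept their direction. The ratio of PSMB8 to PSMB5 at day 1 of C2C12, which did not pass, ranged from -0.0612 to 0.218 on the log2 scale.

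Some differences that did not pass the threshold changed sign. For PSMB8 in C2C12 at day 1 (-0.02) the value was 0.00249 with a minimum of 1 CPM, 0.0158 with the replicate block and -0.0878 to 0.317 with 1 library left out. For PSMB5 there (-0.01) it was 0.0111 with a minimum of 1 CPM and -0.0190 to 0.0919 with 1 library left out. PSME2 ranged from -0.0792 to 0.00113 in C2C12 from day 1 to day 6, from -0.172 to 0.223 in LHCN-M2 at day 1 and from -0.385 to 0.0362 in the first-day difference between the lines. PSMB8 ranged from -0.234 to 0.184 in LHCN-M2 at day 12 and from -0.0751 to 0.498 in the last-day difference. PSMB10 ranged from -0.0232 to 0.384 in LHCN-M2 at day 12 and from -0.0495 to 0.228 in the difference from day 1 to the last day. The causes were not tested. PSMB11, with 6 and 8 counts, could not be tested. The core genes PSMA6 and PSMA2 were low in LHCN-M2 (0.297 and 0.676 CPM per kb at day 0). The part of depth in the core and cap values was not tested.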
